A study of Mus musculus with 12 samples.

Results

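The mesothelial marker genes are 8 genes that mark the thin epithelial sheet covering the heart: Msln, Upk3b, Upk1b, Lrrn4, Wt1, Krt8, Krt18 and Krt19. They were chosen by gene symbol. All 8 were among the 14957 genes of the deposited tables and among the 13910 genes tested. The list was drawn up because Msln had been seen to differ strongly between libraries of the same group, so the levels by library are given as a description, without a test. Transcripts were counted in ventricles of 12 wild-type C57Bl/6J mice, 4 in each of 3 groups. TAC-BacNav mice had transverse aortic constriction, a band around the aorta that overloads the left ventricle, and received AAV9-MHCK7-BacNav-mScarlet, a viral vector for BacNav, a bacterial voltage-gated sodium channel, with the fluorescent protein mScarlet. TAC-mScarlet mice had the same operation and received AAV9-MHCK7-mScarlet. Sham-NT mice were sham-operated and injected with PBS, with no vector, so constriction and vector cannot be told apart when either constricted group is set against Sham-NT. MHCK7 is a striated muscle promoter, and ages, sexes and times after surgery were not given in the sources used here.

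Mesothelium is the single layer of flat cells that lines the body cavities and, as the outer face of the epicardium, covers the heart. It combines epithelial traits, such as keratin filaments and an apical glycoprotein coat, with mesodermal transcription factors, and it is a small part of the ventricular wall by mass. Its genes can therefore read how much outer surface a piece of ventricle carries. In bulk RNA, fewer mesothelial cells and less RNA per mesothelial cell cannot be told apart.

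The promoters of the surface markers Upk3b and Lrrn4 are shown because the levels of both genes moved together from library to library. Of the 8 genes, 4 matched a promoter window of RefSeq (GRCm38.p6), namely Upk3b, Lrrn4, Krt8 and Krt18. Each line gives the 250 bases before the start of transcription, 5′ to 3′ on the gene's strand, for Upk3b at chr5:136038246-136038495 (plus strand) and Lrrn4 at chr2:132880863-132881112 (minus strand).
Upk3b: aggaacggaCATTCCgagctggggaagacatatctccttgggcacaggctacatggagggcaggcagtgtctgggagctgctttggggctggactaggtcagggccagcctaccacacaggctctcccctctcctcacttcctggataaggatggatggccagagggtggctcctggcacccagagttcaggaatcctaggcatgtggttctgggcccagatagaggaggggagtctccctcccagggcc
Lrrn4: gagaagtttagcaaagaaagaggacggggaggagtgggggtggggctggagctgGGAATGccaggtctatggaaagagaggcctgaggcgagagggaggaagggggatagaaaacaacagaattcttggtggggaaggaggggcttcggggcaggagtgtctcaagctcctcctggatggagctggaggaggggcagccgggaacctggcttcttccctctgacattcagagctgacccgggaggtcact
Capitals mark matches to GGAATG, the core bound by TEAD factors, searched on both strands. It matched on the reverse strand 241 to 236 bases before the start of Upk3b and on the printed strand 196 to 191 bases before the start of Lrrn4, and 12.6% of all 32851 windows of this length held it. The AP-1 motif TGANTCA (6.75% of windows), the GC box GGGCGG (32.7%), the WT1/EGR1 motif GCGTGGGNG (1.65%) and TATAAA (12.4%) matched in none of the 4 windows, and GGAATG did not match in those of Krt8 and Krt18. No motif overlapped another in these windows, and a match is only a run of letters.

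Libraries held 7.36 to 11.5 M counts in TAC-BacNav, 8.28 to 9.81 M in TAC-mScarlet and 5.36 to 7.84 M in Sham-NT, where M is mega. Levels are given as CPM, counts per M counts of a library, after TMM scaling, a correction for library composition. The libraries fell into 2 sets in every group. Fos, an immediate early transcription factor switched on within minutes by stress or handling, was at 54.9 CPM or above in 7 libraries and at 7.89 CPM or below in the other 5. The 7 Fos-high libraries were TAC-BacNav 1 and 2, TAC-mScarlet 1, 2 and 3, and Sham-NT 1 and 2. The 5 Fos-low libraries were TAC-BacNav 3 and 4, TAC-mScarlet 4, and Sham-NT 3 and 4. No label names this split, but it ran largely with the mouse number. Mice 1 and 2 were Fos-high and mouse 4 was Fos-low in every group, while mouse 3 was Fos-high in TAC-mScarlet alone. The part of mouse number in the split was not tested. The ventricular myosin light chain gene Myl2 stood at 13671 CPM or more in every library, as the tissue label says.

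The 4 surface markers were detected in every library, and each was many times higher in some mice than in others of the same group. Msln encodes mesothelin, a membrane-anchored glycoprotein of mesothelial cells that binds the mucin Muc16. In mice 1 to 4 it had 17.8, 28.4, 0.934 and 1.32 CPM in TAC-BacNav, 19.0, 11.9, 12.7 and 0.464 CPM in TAC-mScarlet, and 26.2, 17.4, 4.79 and 2.88 CPM in Sham-NT. The low values rest on few reads, with 7, 16 and 4 counts in TAC-BacNav 3, TAC-BacNav 4 and TAC-mScarlet 4. The ranges of the 3 groups overlapped widely, and within each group the Fos-high libraries were the high ones.

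Upk3b encodes a uroplakin, a membrane protein of the bladder lining that is also made by mesothelium. It had 31.2, 32.2, 1.20 and 1.64 CPM in TAC-BacNav, 21.6, 15.3, 14.4 and 2.90 CPM in TAC-mScarlet, and 28.0, 29.1, 5.56 and 1.76 CPM in Sham-NT. The order of mice was much like that of Msln, with the same 7 libraries at the top. Upk1b, a tetraspanin of the uroplakin complex, had 9.65, 10.0, 0.534 and 0.411 CPM in TAC-BacNav, 9.68, 4.42, 4.89 and 1.16 CPM in TAC-mScarlet, and 12.3, 12.3, 1.04 and 0.801 CPM in Sham-NT. Lrrn4, a leucine-rich repeat membrane protein, had 8.37, 7.36, 0.133 and 0.411 CPM in TAC-BacNav, 5.02, 3.51, 3.83 and 0.696 CPM in TAC-mScarlet, and 7.34, 7.81, 0.906 and 0.961 CPM in Sham-NT. For both genes the lowest Fos-high library was more than the highest Fos-low library, by a factor of 3.81 for Upk1b and 3.65 for Lrrn4.

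Wt1, a zinc finger transcription factor of the epicardium that some endothelial cells also express, followed the surface markers more weakly. It had 23.6, 15.9, 11.1 and 8.96 CPM in TAC-BacNav, 10.3, 13.1, 10.4 and 13.3 CPM in TAC-mScarlet, and 35.1, 13.3, 9.58 and 6.73 CPM in Sham-NT. Sham-NT 1 was the highest library and Sham-NT 4 the lowest. Within TAC-BacNav and within Sham-NT both Fos-high libraries lay above both Fos-low ones. In TAC-mScarlet the Fos-low library held as much Wt1 as the Fos-high ones, although its Msln was the lowest of all 12.

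The keratins Krt8, a type II chain, and Krt18 and Krt19, type I chains, pair with each other into the filaments of simple epithelia. Krt18 had 5.93, 7.36, 1.47 and 1.56 CPM in TAC-BacNav, 5.50, 4.30, 9.78 and 2.90 CPM in TAC-mScarlet, and 5.35, 4.68, 0.906 and 1.12 CPM in Sham-NT. Its highest library was TAC-mScarlet 3, which was not among the highest for any surface marker. Krt19 had 6.16, 6.03, 0.267 and 0.904 CPM in TAC-BacNav, 3.70, 1.02, 2.49 and 0.812 CPM in TAC-mScarlet, and 4.76, 3.90, 1.16 and 1.28 CPM in Sham-NT. Krt8 was the scarcest of the 8 genes, at 2.67, 3.62, 0.534 and 0.0822 CPM in TAC-BacNav, 2.39, 2.04, 1.25 and 0.232 CPM in TAC-mScarlet, and 0.991, 1.95, 0.647 and 0.320 CPM in Sham-NT, which is 1 to 30 counts per library. For Krt19 the Fos-high library TAC-mScarlet 2, with 9 counts, fell within the Fos-low range. For Krt8 and Krt18 the sets of libraries did not overlap. For Krt8 this rests on few reads, since Fos-high Sham-NT 1 and Fos-low Sham-NT 3 had 5 counts each and differed only by scaling.

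**Figure D1:**
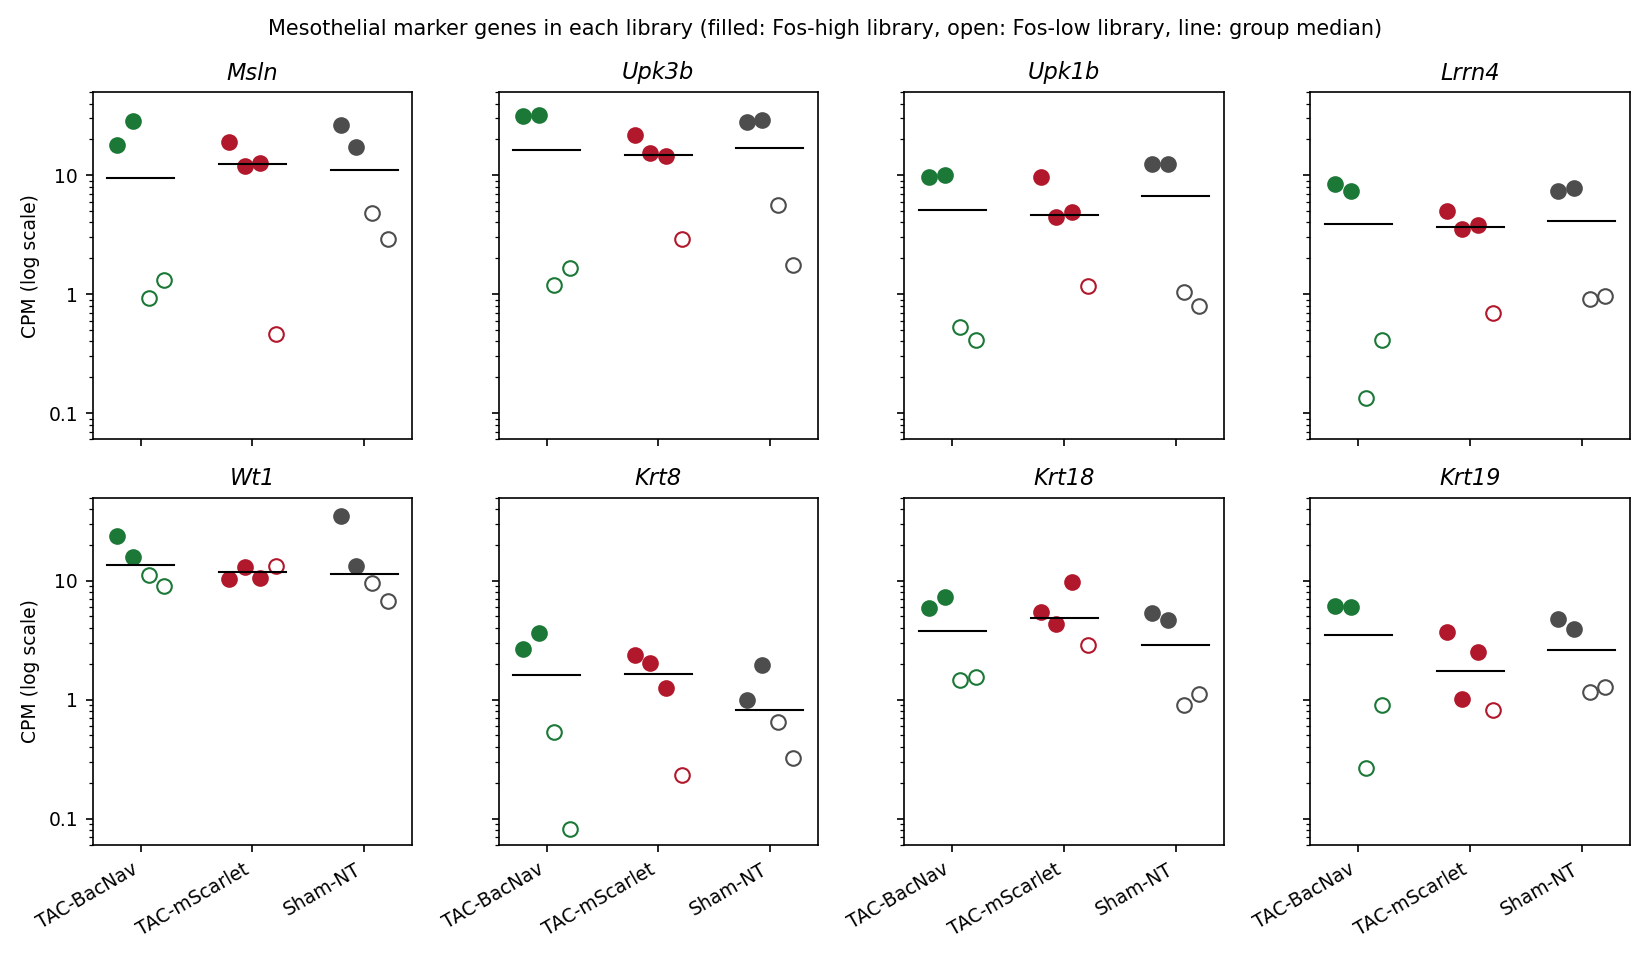
Level of each of the 8 genes in every library, in CPM on a log scale, with mice 1 to 4 from left to right within each group, filled points for the 7 Fos-high and open points for the 5 Fos-low libraries, and a line at the group median. For Msln, Upk3b, Upk1b, Lrrn4, Krt8 and Krt18 every filled point lies above every open one, while Wt1 and Krt19 overlap.

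Per kilobase of exon, the scale on which genes can be compared, Upk3b was the highest of the 8 in the Fos-high libraries, with a median of 7.92 CPM per kb (4.07 to 9.13). Msln followed at 5.81 (3.88 to 9.26), Upk1b at 4.63 (2.11 to 5.89) and Krt18 at 3.82 CPM per kb (2.99 to 6.80). Wt1 (2.14), Krt19 (2.10), Lrrn4 (1.97) and Krt8 (1.04 CPM per kb) were lower, and the ranges of neighbours in this order overlapped. In the Fos-low libraries the order changed, with Wt1 first at 1.55 CPM per kb (1.09 to 2.15), then Krt18 at 1.02 (0.630 to 2.02), and Upk3b at 0.499 (0.340 to 1.58). Positions and exon lengths come from GENCODE vM21 (GRCm38), where Msln lies on chromosome 17 at 25748613 to 25754378, Wt1 on chromosome 2 at 105126529 to 105173616, and Krt8 and Krt18 on chromosome 15 with 23697 bases between them. No exon of another gene overlapped those of 7 of the genes, whereas Krt8 shares 101 bases with Gm36026 on the opposite strand.

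Over the 7 Fos-high libraries, Lrrn4 kept a nearly fixed proportion to Upk3b, from 0.228 to 0.269 of its level. Upk1b varied more, from 0.289 to 0.448 of the Upk3b level, and so did Msln, from 0.571 to 0.936. In the 5 Fos-low libraries the same ratios spread more widely, at 0.111 to 0.545 for Lrrn4, 0.186 to 0.455 for Upk1b and 0.160 to 1.64 for Msln, on counts that fell as low as 1. The Wt1 to Upk3b ratio ran from 0.456 to 1.26 in the Fos-high and from 1.72 to 9.22 in the Fos-low libraries. Upk3b alone already separated these sets, so the gap in this ratio restates that of Upk3b and is no further result.

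Summed over Msln, Upk3b, Upk1b and Lrrn4, the surface markers reached 35.1 to 78.0 CPM in the Fos-high libraries and 2.80 to 12.3 CPM in the Fos-low ones. The median level of single genes differed between these sets by a factor of 13.5 for Msln, 15.9 for Upk3b, 12.1 for Upk1b and 10.5 for Lrrn4, against 6.36 for Krt8, 4.32 for Krt19, 3.74 for Krt18 and 1.39 for Wt1. The ranges of the sets did not overlap for 6 of the 8 genes, all higher in the Fos-high libraries, as were 1.45% of the 13910 genes tested, while 1.17% were lower without overlap. Because Msln was noticed through this split, the count describes the list and is no evidence about it. Other genes moved with the split: Egr1, a second immediate early factor, ran from 214 to 785 CPM in the Fos-high and from 16.3 to 35.0 CPM in the Fos-low libraries. Fkbp5, a glucocorticoid-induced chaperone gene, was opposite, at 17.8 to 24.4 CPM in the Fos-high and 51.9 to 71.8 CPM in the Fos-low libraries, and Per2, a gene of the circadian clock, ran from 15.3 to 51.6 CPM in the Fos-high and from 69.2 to 138 CPM in the Fos-low libraries. Of the 8 immediate early genes listed, 7 were higher without overlap in the Fos-high libraries, including Fos, which defined the sets. Of 5 glucocorticoid-responsive genes 4 were lower. The part of these immediate early, glucocorticoid-responsive and clock genes in the level of the mesothelial genes was not tested.

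**Figure D2:**
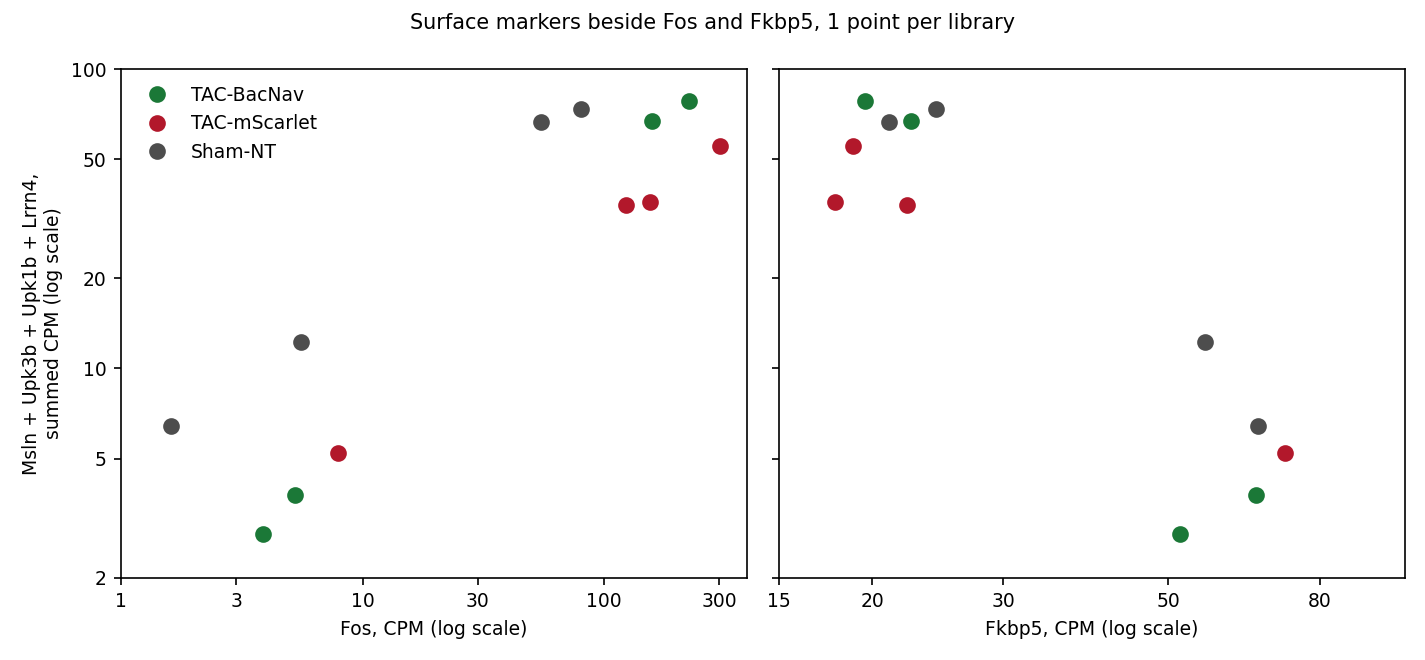
Summed level of Msln, Upk3b, Upk1b and Lrrn4 against Fos (left) and Fkbp5 (right), in CPM on log scales, with 1 point per library coloured by group. The 7 libraries with Fos at 54.9 CPM or above sit between 35.1 and 78.0 CPM of surface markers, the other 5 between 2.80 and 12.3 CPM, and all 3 groups have libraries in both sets.

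No difference of the 8 genes passed the test between TAC-BacNav and TAC-mScarlet, the comparison of BacNav with its control vector. Mean levels were 12.1 ± 13.4 CPM in TAC-BacNav and 11.0 ± 7.72 CPM in TAC-mScarlet for Msln, 16.6 ± 17.5 and 13.5 ± 7.80 CPM for Upk3b, and 14.9 ± 6.50 and 11.8 ± 1.66 CPM for Wt1 (SD, n = 4 each). In TAC-BacNav the SD of Msln was larger than its mean. The log2 fold change was 0.12 ± 1.14 (SE) for Msln, with a 95% interval from -2.43 to 2.67, and 0.28 ± 1.11 for Upk3b (-2.21 to 2.77). For Wt1 it was 0.33 ± 0.44 (-0.63 to 1.29), the narrowest interval of the 8, and for Krt18 -0.48 ± 0.61 (-1.79 to 0.82). With p-values from the quasi-likelihood test of edgeR, Benjamini-Hochberg adjusted over all genes, 0 of the 8 were called at an adjusted p below 0.05, 0 had an unadjusted p below 0.05, and DESeq2 and limma-voom also called 0. Over all genes the same test called 0%, so the count says nothing particular about these 8. The intervals of the surface markers leave room for changes of several-fold in either direction. The median log2 fold change was 0.20 over the 4 surface markers and 0.20 over the 3 keratins, beside 0.004 over all genes. Krt18 alone, 1 of the 8, had a fold change below 0, as did 49.2% of all genes. These directions were not stable: limma-voom gave -0.43 for Msln, -0.80 for Upk3b, -0.98 for Upk1b and -0.90 for Lrrn4, and all 4 surface markers also changed sign when single libraries were left out.

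TAC-mScarlet against Sham-NT, which compares constriction with control vector to the sham operation, also gave 0 calls among the 8 genes by edgeR, 0 at an unadjusted p below 0.05, and 0 by DESeq2 or limma-voom, where 5.17% of all genes were called by edgeR. Mean levels were 11.0 ± 7.72 CPM in TAC-mScarlet and 12.8 ± 11.0 CPM in Sham-NT for Msln, and 5.62 ± 2.97 and 3.02 ± 2.33 CPM for Krt18 (SD, n = 4 each). Msln gave a log2 fold change of -0.18 ± 1.16 (SE; 95% interval -2.79 to 2.43) and Wt1 -0.43 ± 0.45 (-1.41 to 0.54). Krt18 had the smallest p, at 0.97 ± 0.65 (-0.43 to 2.37; adjusted p = 0.421 by edgeR), and Krt8 gave 0.64 ± 0.88 (-1.24 to 2.52). The log2 fold change was below 0 for 6 of the 8 genes, the 4 surface markers, Wt1 and Krt19, and for 49.5% of all genes. Its median was -0.27 over the surface markers, 0.64 over the keratins and 0.004 over all genes. The 4 surface markers and Wt1 changed sign when single libraries were left out, and limma-voom gave 0.36 for Upk3b, 0.44 for Upk1b and 0.16 for Lrrn4. Of 8 fibroblast genes listed, Col1a1, Lum and Pi16 rose in this comparison and 5 did not pass. The sum over the 8 was 3024 to 4755 CPM in TAC-mScarlet and 2195 to 2962 CPM in Sham-NT. Most of it came from Dcn and Gsn, which were not called (adjusted p of 0.0781 and 0.707 by edgeR). How the 3 calls fared in the alternative fits was not examined. Over all genes the calls in this comparison ran from 14 to 1055 when single libraries were left out. The part of fibroblasts in the mesothelial values was not tested.

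In TAC-BacNav against Sham-NT, 0 of the 8 genes were called by edgeR, DESeq2 or limma-voom and 0 had an unadjusted p below 0.05 by edgeR, against 0.0144% of all genes called by edgeR. Upk3b averaged 16.6 ± 17.5 CPM in TAC-BacNav and 16.1 ± 14.4 CPM in Sham-NT (SD, n = 4 each), a log2 fold change of 0.066 ± 1.13 (SE; 95% interval -2.47 to 2.60). Krt8, at 1.73 ± 1.69 CPM in TAC-BacNav and 0.978 ± 0.705 CPM in Sham-NT, had the smallest p (0.84 ± 0.87; -1.03 to 2.70; adjusted p = 0.741 by edgeR). Msln, Upk1b, Lrrn4 and Wt1, 4 of the 8, had fold changes below 0, as did 48.9% of all genes, and each of the 4 changed sign when single libraries were left out. The ranges of the groups overlapped for all 8 genes in all 3 comparisons. By comparison, 1.7% of all genes had no overlap between TAC-BacNav and TAC-mScarlet, 13.1% between TAC-mScarlet and Sham-NT, and 5.45% between TAC-BacNav and Sham-NT.

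The comparisons were also fitted with the side of the Fos split taken into account. Since Msln was noticed through this split, a smaller spread of Msln and of the genes that move with it is built into these fits, and their intervals and p-values are a description and no support for a difference. With the side of the split as a covariate, the SE of the Msln fold change in TAC-mScarlet against Sham-NT was 0.37, against 1.16 without it. Msln then gave -1.09 (95% interval -1.88 to -0.29), Lrrn4 -0.91 (-1.66 to -0.17), Upk1b -0.79 (-1.50 to -0.07) and Upk3b -0.78 (-1.48 to -0.08), with unadjusted p of 0.0108 to 0.0327 and adjusted p of 0.0773 to 0.149 by edgeR, so 0 of the 8 genes were called where 10.5% of all genes were. With the covariate 0 of the 8 were also called in TAC-BacNav against TAC-mScarlet, where 0% of all genes were, and in TAC-BacNav against Sham-NT, where 0.0575% were. Unadjusted p was below 0.05 by edgeR for 4 of the 8 in TAC-mScarlet against Sham-NT, for 1, Krt19, in TAC-BacNav against TAC-mScarlet, and for 0 in TAC-BacNav against Sham-NT. Within the Fos-high libraries alone, Upk3b had 31.2 and 32.2 CPM in TAC-BacNav, 21.6, 15.3 and 14.4 CPM in TAC-mScarlet, and 28.0 and 29.1 CPM in Sham-NT. All 3 TAC-mScarlet values were the lowest for Upk3b and Lrrn4, and by a small margin for Wt1 and Krt19. In contrast, Msln in TAC-mScarlet 1 was above Msln in Sham-NT 2 and in TAC-BacNav 1. Upk1b in TAC-mScarlet 1 was above Upk1b in TAC-BacNav 1. Krt8 in TAC-mScarlet 1 was above Krt8 in Sham-NT 1 and 2, and Krt18 was highest in TAC-mScarlet 3. The fit to these libraries gave Upk3b a log2 fold change of 0.89 ± 0.19 in TAC-BacNav against TAC-mScarlet (adjusted p = 0.431 by edgeR) and of -0.74 ± 0.19 in TAC-mScarlet against Sham-NT (adjusted p = 0.0513 by edgeR), neither of which passed. In these libraries 4 genes had an unadjusted p below 0.05 in TAC-BacNav against TAC-mScarlet (Msln, Upk3b, Lrrn4 and Krt19), 4 in TAC-mScarlet against Sham-NT (Upk3b, Upk1b, Lrrn4 and Wt1) and 0 in TAC-BacNav against Sham-NT. None of the 8 was called there in any of the 3 comparisons, while edgeR called 0.0141% of all genes in TAC-BacNav against TAC-mScarlet, 4.87% in TAC-mScarlet against Sham-NT and 0.0282% in TAC-BacNav against Sham-NT. Krt18 gave 0.68 ± 0.32 with the covariate in TAC-mScarlet against Sham-NT (adjusted p = 0.192 by edgeR). In the Fos-low libraries, where TAC-mScarlet is a single mouse assumed to vary like the others, 4 of the 8 genes had enough counts to be tested and 0 were called. Of all genes 0%, 0.672% and 0.238% were called there in the same 3 comparisons, and 0, 2 and 2 of the 4 had an unadjusted p below 0.05. For TAC-mScarlet these p-values hold no spread between mice of that group. Msln had 7 and 16 counts in TAC-BacNav 3 and 4, 4 counts in TAC-mScarlet 4, and 37 and 18 counts in Sham-NT 3 and 4.

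**Figure D3:**
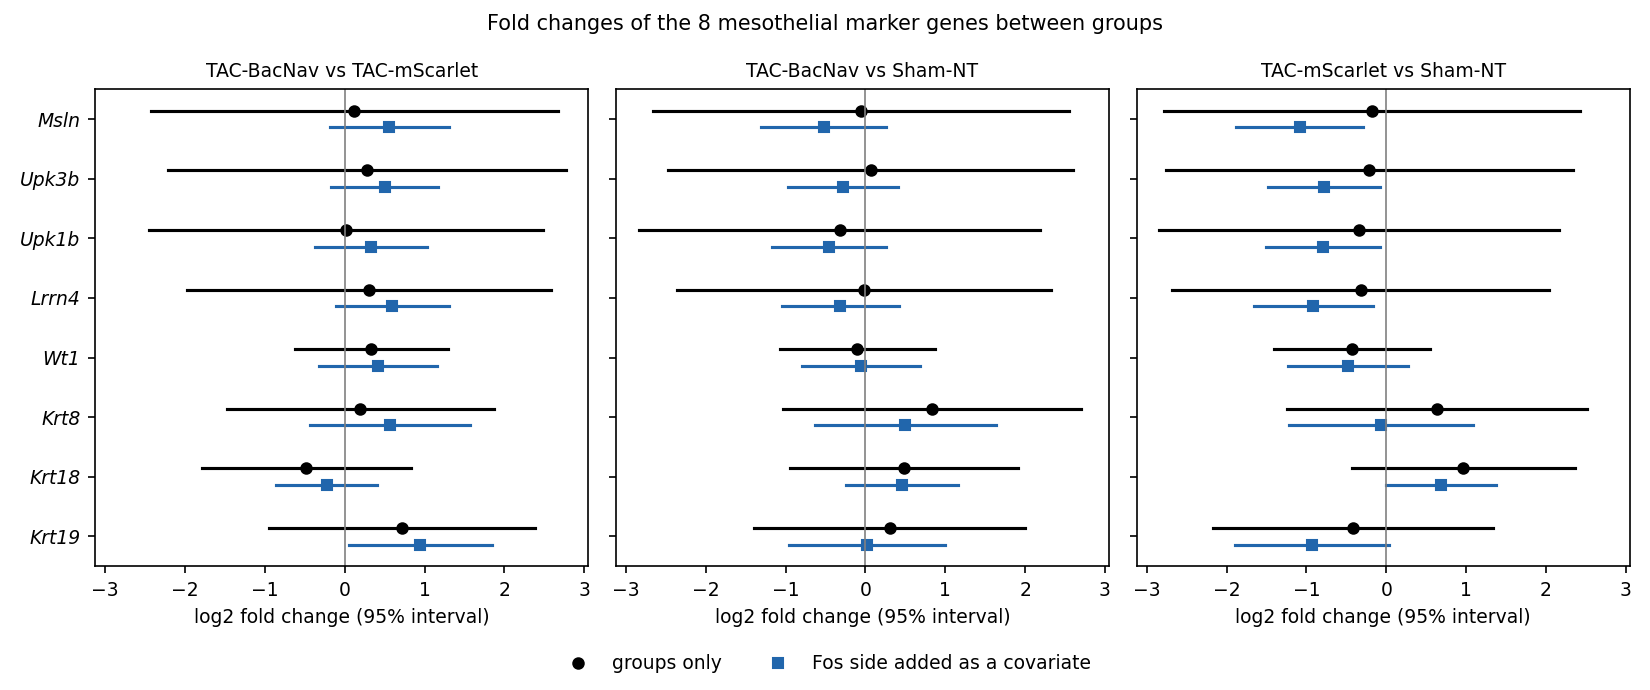
Log2 fold change of each gene in the 3 comparisons, with 95% intervals, from the fit with groups alone (black circles) and with the side of the Fos split as a covariate (blue squares). The intervals of the surface markers shrink with the covariate, from -2.79 to 2.43 without it to -1.88 to -0.29 with it for Msln in TAC-mScarlet against Sham-NT, and none of the 8 genes passed adjustment in either fit.

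A list of 20 other genes of mesothelium and epicardium held 16 genes of the tables, all tested. In 8 of the 16 the Fos-high libraries lay above the Fos-low ones without overlap, and in the other 8 the sets overlapped. Of all 13910 genes tested, 1.45% were higher without overlap. The list was chosen with earlier results of these data known, so its count is a description and no evidence. The separated genes included Muc16, the mucin that binds mesothelin, at 4.50 to 10.1 CPM in the Fos-high and 0.329 to 1.94 CPM in the Fos-low libraries, and the keratin Krt7, at 1.19 to 3.26 CPM and 0 to 0.580 CPM in the same order. The others were the neuronal glycoprotein gene Gpm6a, Nkain4, which encodes a partner of the sodium pump, the transcription factor Bnc1, the Wnt enhancer Rspo1, the claudin Cldn15 and the complement gene C3. The lowest Fos-high library exceeded the highest Fos-low one by a factor of only 1.16 for C3 and 1.24 for Cldn15. Bnc1 had as few as 6 counts in a Fos-high library, Sham-NT 2. The genes that overlapped were the developmental epicardial factors Tbx18 and Tcf21, the retinoic acid enzyme Aldh1a2, the guidance ligand Sema3d, the membrane mucoprotein Pdpn, the lubricant Prg4, the matrix fibulin Efemp1 and the annexin Anxa8. Tbx18 had medians of 9.52 CPM in the Fos-high and 7.19 CPM in the Fos-low libraries, and Tcf21 had 9.32 and 8.54 CPM in the same order.

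**Figure D4:**
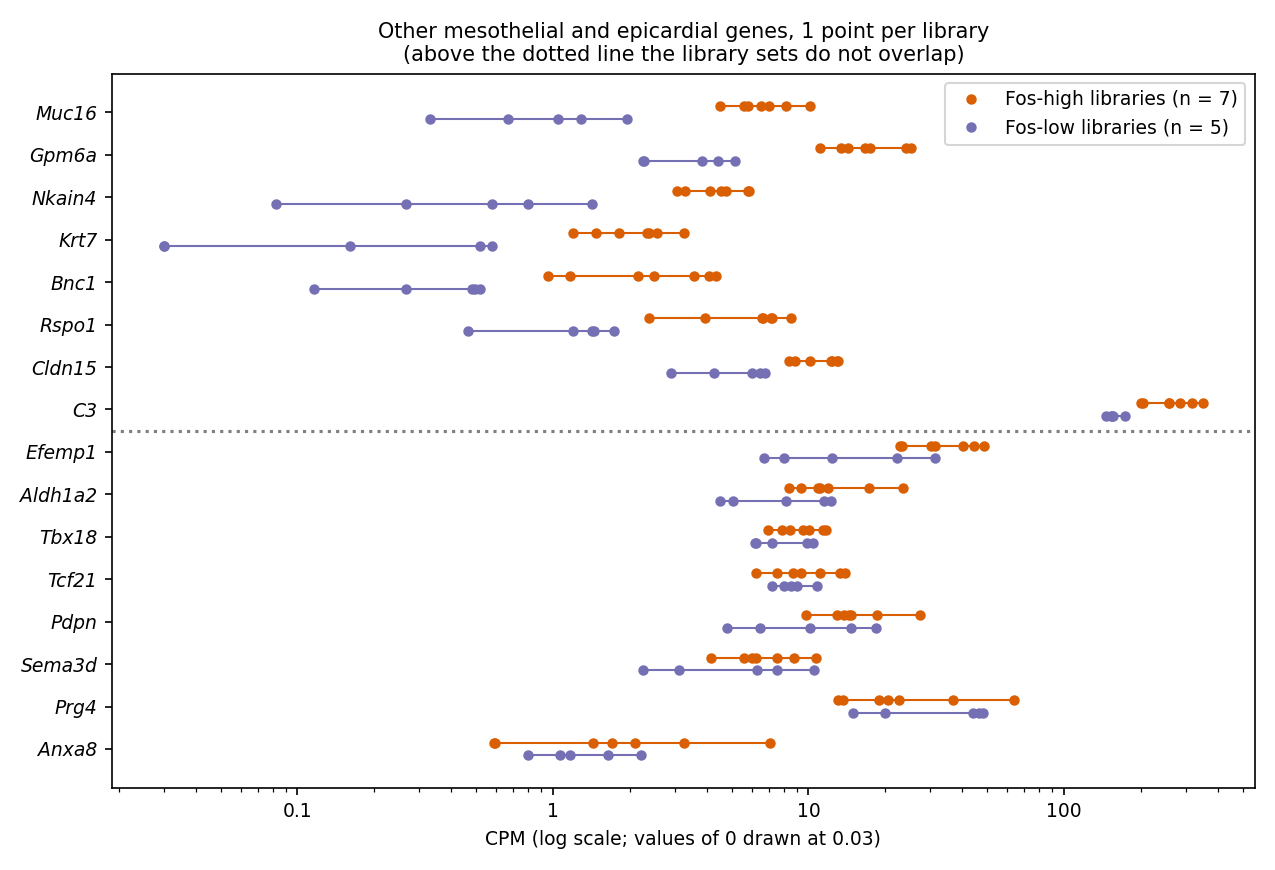
Levels of the 16 other mesothelial and epicardial genes in CPM on a log scale, 1 point per library, in the 7 Fos-high (orange) and 5 Fos-low (purple) libraries. Above the dotted line are the 8 genes without overlap, such as Muc16, and below it the 8 that overlap, such as Tbx18.

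Between the groups, 1 of 16 genes of that list rose and 15 did not pass in TAC-mScarlet against Sham-NT, where 5.17% of all genes were called, a share near that of the list. In the other comparisons 0 of 16 were called in TAC-BacNav against TAC-mScarlet and 0 of 16 in TAC-BacNav against Sham-NT. The gene that rose was Prg4, which encodes lubricin, a lubricating proteoglycan of joint and serosal surfaces. It had 22.7, 36.8, 63.6 and 48.4 CPM in TAC-mScarlet and 13.7, 13.1, 14.9 and 19.9 CPM in Sham-NT, which gave 1.48 ± 0.36 as log2 fold change (edgeR, adjusted p = 0.037). Every TAC-mScarlet library lay above every Sham-NT library, but the call was lost without any one of Sham-NT 1 to 4, TAC-mScarlet 3 or TAC-mScarlet 4 (adjusted p of 0.0712 to 0.112 by edgeR), with limma-voom (0.0572) and in the Fos-high libraries alone (0.0774). Sema3d (1.09 ± 0.31), Aldh1a2 (1.09 ± 0.32), Anxa8 (1.94 ± 0.57) and Pdpn (1.06 ± 0.32) had adjusted p of 0.0521 to 0.0629 by edgeR in the same comparison. In TAC-BacNav against Sham-NT the log2 fold changes of Sema3d, Aldh1a2, Anxa8, Pdpn and Prg4 were 0.96, 0.89, 1.29, 0.70 and 1.08, with adjusted p of 0.367 to 0.439 by edgeR. Prg4 had 18.8, 20.4, 44.2 and 46.7 CPM in TAC-BacNav, higher in its Fos-low mice 3 and 4. Over the 16 genes the median log2 fold change was -0.063 in TAC-BacNav against TAC-mScarlet, 0.15 in TAC-mScarlet against Sham-NT and 0.34 in TAC-BacNav against Sham-NT.

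In TAC-mScarlet against Sham-NT, where 5.17% of all genes were called, 2 of 6 intermediate filament genes outside the keratins rose and 4 did not pass. They were Des, the desmin of muscle (0.55 ± 0.13, adjusted p = 0.0297 by edgeR), and its partner Synm (0.62 ± 0.15, adjusted p = 0.0324 by edgeR), and the calls were lost in 7 and 9 of 18 alternative fits for Des and Synm, for both without Sham-NT 1, 2 or 4 and without TAC-mScarlet 3 or 4 (largest adjusted p 0.504 and 0.507, in the Fos-low libraries). None of the 6 was separated by the Fos split. The other keratins of the tables were Krt7, described above, and Krt80, Krt10 and Krt222, whose ranges in Fos-high and Fos-low libraries overlapped. Of 4 other uroplakin genes only Upk1a was in the tables, at 0.0958 to 2.24 CPM, too low to be tested, and its ranges overlapped too.

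Markers of other tissue that could come with the outer surface or the base of the heart were counted as well. Of 6 atrial genes 4 were in the tables, and the atrial myosin light chain gene Myl7 followed the split, at 1.59 to 5.35 CPM in the Fos-high and 0.116 to 0.961 CPM in the Fos-low libraries. The medians of Myl7 differed by a factor of 23.5, beside 15.9 for Upk3b, on 1 to 6 counts in the Fos-low libraries. The atrial genes Myl4, Dkk3 and Stard10 did not follow the split. The sum over the 4, mostly Stard10 and Dkk3, ran from 42.9 to 60.7 CPM in the Fos-high and 33.0 to 57.7 CPM in the Fos-low libraries. By group it ran from 33.0 to 52.5 CPM in TAC-BacNav, from 42.9 to 54.3 CPM in TAC-mScarlet and from 39.3 to 60.7 CPM in Sham-NT. Of 8 epithelial genes only Grhl2, and of 7 lung genes only Sftpb, were in the tables, both at 3.32 CPM or less in every library, and neither was separated by the split. Of 9 adipocyte genes Fabp4, also an endothelial gene, and Plin4 were in the tables, and of 6 red cell genes 5. Genes of fibroblasts (8 of 8 in the tables), ventricular cardiomyocytes (8 of 8), lymphatic endothelium (4 of 4), adipocytes and red cells all had overlapping ranges between the Fos-high and Fos-low libraries. The overlap was narrow for the lymphatic gene Lyve1, at 23.6 to 46.1 CPM in the Fos-high and 45.7 to 81.2 CPM in the Fos-low libraries. Medians of Lyve1 and Flt4 were lower, and those of Prox1 and Pdpn higher, in the Fos-high libraries. Between the groups, the calls among the lists of this paragraph, besides the 3 fibroblast genes above, were in TAC-mScarlet against Sham-NT, where 5.17% of all genes were called. There 3 of 4 atrial, 1 of 2 adipocyte and 5 of 8 ventricular cardiomyocyte genes did not pass. The atrial gene Dkk3 rose (2.86 ± 0.64), and Plin4 (-0.79 ± 0.19), Myh6 (-0.74 ± 0.20), Tnnt2 (-0.48 ± 0.13) and Tnni3 (-0.93 ± 0.18) fell, with adjusted p of 0.0204 to 0.0442 by edgeR. How these calls fared in the alternative fits was not examined. The part of atrial tissue in the mesothelial levels was not tested.

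The genes whose pattern over the 12 libraries was most like the mean log2(CPM + 1) of Msln, Upk3b, Upk1b, Wt1 and Lrrn4 were sought among 13836 other genes with a mean of at least 1 CPM. The likest was Xpnpep2, a membrane-bound aminopeptidase, with a Pearson r of 0.993 and a Spearman rho of 0.979 over 12 libraries. Next came Nkain4 and Muc16 (both r = 0.975), the ferric reductase gene Cybrd1 (0.973), the glypican Gpc3 (0.972), the zinc transporter Slc39a8 (0.961), Krt7 (0.959), the sulfotransferase Chst4 (0.953), the chemokine Ccl2 (0.952) and the peroxiredoxin Prdx1 (0.952). Xpnpep2 had 1.70 to 4.76 CPM in the Fos-high and 0.133 to 0.777 CPM in the Fos-low libraries, and each of the other 9 was also higher in the first set without overlap. The gap was narrow for Prdx1, at 572.5 CPM or more against 556 CPM or less. The genes were chosen for likeness to markers that differ between the sets, so their separation is no further result. The values of r are descriptions over libraries that fall into separate sets. Within the 7 Fos-high libraries r ran from 0.708 to 0.983, highest for Xpnpep2. Of the 10 genes, Nkain4, Muc16 and Krt7 were on the list of other mesothelial genes.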

How the data were processed

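Each mouse has a table of raw read counts by gene, deposited by the authors as whole numbers. The tools are HISAT2 and featureCounts per the submitters' processing notes, which name GRCh38, whereas the files carry mouse Ensembl identifiers. The sources used here give no versions, strand setting or rule for multiply mapped reads, so reads of opposite-strand partners or near-identical copies cannot be told apart. Of 14957 identifiers, 14946 matched GENCODE vM21 (GRCm38) without version.

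The authors' counts went unchanged into edgeR 4.0.16 (R 4.3.3). Genes passing filterByExpr by group numbered 13910. A quasi-likelihood model with robust dispersion and TMM scaling was fitted to all 12 libraries, each pair of groups was tested two-sided, and p-values were adjusted over all genes with Benjamini-Hochberg (threshold 0.05). SE is the size of the fold change over the square root of F, and intervals use the model's t distribution. Each mouse is a separate animal. Within groups the closest pair of libraries had a chi-square per degree of freedom of 5.70. The fits were tested on simulated data. Fos sides were set by the largest gap in log2 CPM of Fos. Alternatives were DESeq2 1.42.0, limma 3.58.1 (voom), other scaling, no filter, 2 groups alone, mouse number as a block, Fos sides and leaving out each library.

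The members, lists and tests were chosen with earlier results of these data known. Named genes are the 8 members, called or most abundant genes of each list, and the 10 genes most like the members.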

Additional observations from a re-analysis of the deposited data

Results flagged for a closer look

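One library stood apart from the others of its group for a gene shown beside the mesothelial markers. Fkbp5 had 71.8 CPM in TAC-mScarlet 4, against 17.8 to 22.3 CPM in the other 3 TAC-mScarlet libraries, a gap of 0.917 of the group's range where 0.829 is the 95% limit of Dixon's test for 4 samples. TAC-mScarlet 4 is the only Fos-low library of its group and had the lowest Msln of all 12 libraries. The check was run on 69 sets of 4 libraries (23 quantities in 3 groups), of which chance would flag about 1 in 20.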

How the results depend on the processing

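None of the 8 genes was called in any of the 3 comparisons under any alternative fit, with 0 calls without each library in turn as well. In TAC-BacNav against Sham-NT with those 2 groups alone 7 of the 8 were tested, and in the Fos-low libraries 4. Of 419 fold changes refitted, 83 had the opposite sign to the first fit, the largest first value among these results being 0.84. The causes were not tested.

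With mouse number as a replicate block, log2 fold changes in TAC-mScarlet against Sham-NT were 0.22 (Upk3b), 0.15 (Upk1b) and 0.039 (Lrrn4), in TAC-BacNav against TAC-mScarlet -0.24 (Msln), -0.33 (Upk3b), -0.55 (Upk1b), -0.26 (Lrrn4) and -0.009 (Krt8), and -0.12 (Upk3b) when TAC-BacNav was set against Sham-NT. Over all genes the block called 6 between TAC-BacNav and TAC-mScarlet, 889 between TAC-mScarlet and Sham-NT, and 12 between TAC-BacNav and Sham-NT. By label, mice with the same number share only the number, but mice 1, 2 and 4 also shared the Fos side in every group. The block therefore takes up part of the Fos split. The SE of Msln in TAC-mScarlet against Sham-NT was 0.64 with it, against 1.16 without it. Since Msln was noticed through this split, the smaller SE is no support for a difference. Deviations from group means correlated at -0.292 to 0.379 over 12 same-numbered pairs, 8 of them above 0.1, and 3 of 12 libraries correlated best with their own number.

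With limma-voom, TAC-mScarlet against Sham-NT gave 0.36 (Upk3b), 0.44 (Upk1b) and 0.16 (Lrrn4), TAC-BacNav against TAC-mScarlet -0.43 (Msln), -0.80 (Upk3b), -0.98 (Upk1b), -0.90 (Lrrn4) and -0.54 (Krt8), and TAC-BacNav against Sham-NT -0.44 (Upk3b), 0.12 (Wt1), -0.08 (Krt8) and -0.28 (Krt19). With library size scaling, Upk1b was -0.030 in TAC-BacNav against TAC-mScarlet, and Msln was 0.031 and Lrrn4 0.063 in TAC-BacNav against Sham-NT. With the Fos side as a covariate, Krt8 was -0.069 in TAC-mScarlet against Sham-NT and Upk3b -0.28 in TAC-BacNav against Sham-NT. In the Fos-high libraries, Krt18 was 0.013 in TAC-BacNav against TAC-mScarlet, and Msln 0.085 and Lrrn4 0.056 in TAC-BacNav against Sham-NT. In the Fos-low libraries, Wt1 was 0.68 in TAC-mScarlet against Sham-NT, Upk3b -0.998 and Wt1 -0.42 in TAC-BacNav against TAC-mScarlet, and Upk3b -1.38 and Wt1 0.26 in TAC-BacNav against Sham-NT.

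Leaving out 1 library at a time, TAC-mScarlet against Sham-NT ran from -0.57 to 0.44 (Msln), -0.60 to 0.25 (Upk3b), -0.86 to 0.17 (Upk1b), -0.69 to 0.17 (Lrrn4) and -0.69 to 0.27 (Wt1). TAC-BacNav against TAC-mScarlet ran from -0.74 to 0.52 (Msln), -0.27 to 0.68 (Upk3b), -0.53 to 0.53 (Upk1b), -0.34 to 0.71 (Lrrn4) and -0.47 to 0.64 (Krt8). TAC-BacNav against Sham-NT ran from -0.92 to 0.57 (Msln), -0.49 to 0.53 (Upk3b), -0.88 to 0.19 (Upk1b), -0.67 to 0.47 (Lrrn4), -0.42 to 0.60 (Wt1) and -0.18 to 0.70 (Krt19).

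The number of all genes called between TAC-mScarlet and Sham-NT, 719 in the first fit, was 1459 with the Fos covariate, 96 in the Fos-low libraries, 1370 with DESeq2 and 475 with limma-voom. Without single libraries it ran from 14 (without Sham-NT 2) to 1055 (without Sham-NT 3). It was 20 with Sham-NT 4 left out, 97 with TAC-mScarlet 3, 228 with TAC-mScarlet 4 and 256 with Sham-NT 1 left out. TAC-BacNav against TAC-mScarlet called 0, or 1 with the 2 groups alone, 2 in the Fos-high libraries and 5 with DESeq2. TAC-BacNav against Sham-NT called 2, or 1 with the 2 groups alone, 8 with the Fos covariate, 4 in the Fos-high and 34 in the Fos-low libraries and 38 with DESeq2, and 0 to 15 without single libraries (15 with TAC-BacNav 1 left out, 0 or 1 with any other left out).

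With the deviations from group means, 2 of the 10 genes most like the members stayed among the 10 likest, and with Msln alone 6. Counts under 10 in the Fos-low libraries limit Msln, Upk3b, Upk1b, Lrrn4, Krt8, Krt18 and Krt19 there. In the Fos-high libraries they limit Krt8 in Sham-NT 1 (5 counts) and Krt19 in TAC-mScarlet 2 (9 counts).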
